A study of Mus musculus with 24 samples.

Results

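The complement genes described here are 9 of the 24346 gene symbols measured, chosen by name: the C1q chains C1qa, C1qb and C1qc, the convertase genes C2, C4b and Cfb, the central component C3, and the inhibitors Cfi and Serping1. All 9 were listed in each library, and all 9 passed the expression filter, as did 13799 symbols in all. C2 was picked because it was low in the KO-8-homo tumors, so its values there are given as a description. The members were also chosen with earlier results of these data known.

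Complement is a set of plasma and cell-surface proteins that tag microbes and damaged cells and recruit phagocytes. Its classical pathway starts when C1q binds a target, its alternative pathway amplifies through factor B, and both meet at C3. In the gut, C1q is made largely by macrophages, whereas epithelial and stromal cells also make C3, C4, factor B and the C1 inhibitor, and interferon and inflammatory cytokines raise several of these transcripts.

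RNA-seq of mouse colorectal tissue was available for 14 tumor and 10 normal libraries, all from animals given azoxymethane, a colon carcinogen, and dextran sulfate sodium, which injures the colon lining (AOM/DSS). By title, the tumors were 4 WT-young, 1 WT-old, 3 KO-8-homo, 3 KO-8-hetero and 3 KO-1-hetero, and each of these 5 titles also had 2 normal libraries. WT normal below means the 4 normal libraries of both WT titles, and heterozygous KO means KO-8-hetero with KO-1-hetero. KO stands for the label c-MAF_KO, a knockout of the transcription factor c-MAF, and WT for wild type. The labels do not explain the numbers 1 and 8, do not give ages in weeks, a promoter or a Cre line, and do not say which pieces came from the same animal, so the p-values measure the spread between pieces. Maf itself was not lower in the KO tumors than in the WT-young tumors: it was at 2.62 to 7.40 FPKM in the heterozygous KO tumors and 3.0 to 4.73 FPKM in the KO-8-homo tumors, against 1.63 to 2.26 FPKM in the WT-young tumors. The WT-old tumor had 7.26 FPKM, and the normal libraries overlapped, at 1.52 to 6.27 FPKM under KO and 1.37 to 2.82 FPKM under WT. The labels do not say which part of the gene was deleted, so KO is used here as the label only. FPKM is fragment counts scaled to transcript length and library size, which allows levels of different genes to be compared. Relative depth, estimated from low values, ranged from 0.697 to 1.85 of the median library. Xist, which marks female cells, was at 7.38 FPKM or more in 6 libraries, all in the heterozygous KO groups and including each of their 4 normal libraries, and at 0.0719 FPKM or less in the other 18. Epithelial markers averaged 8.75 to 10.1 on the log2(FPKM + 1) scale in the 24 libraries, none at 0. The WT-old tumor stood apart: smooth muscle markers averaged 7.74 there on that scale, against 3.88 to 6.62 in the other 13 tumors.

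The members lie at 5 places in the genome (GRCm38.p6, which mm10 corresponds to). C1qb, C1qc and C1qa sit next to each other on chr4:136880126-136898844, with 3600 and 2979 bases between neighbours. C4b (chr17:34728139-34743902), Cfb (chr17:34856374-34862514) and C2 (chr17:34862602-34882100) belong to the major histocompatibility complex region of chromosome 17, where 87 bases separate Cfb from C2. C3 (chr17:57203967-57228136) is elsewhere on that chromosome. Serping1 is at chr2:84765360-84775444 and Cfi at chr3:129836727-129875332. Shared sequence could affect the counting of fragments for 3 of them. In the GENCODE M21 transcripts, 58.0% of the 50-base windows of C2 and 81.4% of those of Cfb also occur in Gm20547. That is a read-through gene model across both genes, and it is not among the symbols measured. Of the windows of C4b, 35.2% occur in its near copy C4a. C4a was listed at 0.274 FPKM or less in each library. The values of C4b are thus less certain than those of the 6 members that shared no window with another gene. Whether Gm20547 was in the annotation used is not known, so its effect on C2 and Cfb cannot be told.

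The RefSeq promoter table held 3 of the 9 members. The 250 bases before each start given there are shown. C1qb and C1qc are included because these neighbouring genes kept nearly the same level in the data below, and C3 as a member outside that cluster. For C1qc that start lies inside the annotated gene, which reaches chr4:136892936, so the last bases of its window are within the gene. All 3 windows are on the minus strand and written in the direction of transcription.
C1qb (chr4:136886201-136886450): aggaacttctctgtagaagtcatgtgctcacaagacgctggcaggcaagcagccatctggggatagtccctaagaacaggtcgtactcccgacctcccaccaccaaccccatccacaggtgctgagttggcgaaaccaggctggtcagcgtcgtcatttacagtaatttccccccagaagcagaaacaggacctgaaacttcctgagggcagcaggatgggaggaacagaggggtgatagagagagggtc
C1qc (chr4:136892915-136893164): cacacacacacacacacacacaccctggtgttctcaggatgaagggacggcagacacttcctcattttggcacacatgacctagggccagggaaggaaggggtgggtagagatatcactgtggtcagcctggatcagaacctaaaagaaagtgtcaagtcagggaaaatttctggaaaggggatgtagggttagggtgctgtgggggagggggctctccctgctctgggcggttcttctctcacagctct
C3 (chr17:57228137-57228386): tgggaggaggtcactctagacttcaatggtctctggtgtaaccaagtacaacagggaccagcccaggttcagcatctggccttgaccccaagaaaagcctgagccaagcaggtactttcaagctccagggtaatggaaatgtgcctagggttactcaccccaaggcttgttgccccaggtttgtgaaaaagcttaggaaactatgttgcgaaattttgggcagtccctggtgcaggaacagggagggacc
The windows were searched on both strands for an interferon gamma site (TTCNNNGAA) and an NF-kB site (GGGNNTTCC). None of the 3 windows held either, so no letters are in capitals. Of the 32851 windows of all genes of that length, 7.02% held the first and 4.98% the second.

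The C1q chains, which assemble into the molecule that opens the classical pathway, were among the most abundant members and higher in tumors. C1qa was at 120, 112, 131 and 79.8 FPKM in the WT-young tumors, against 70.2 and 48.7 FPKM in WT-young and 38.7 and 58.6 FPKM in WT-old normal tissue. Every WT-young tumor was thus above every WT normal library. Of the 9 members 5 had no overlap here (the C1q chains, C2 and Cfi), as 19.8% of all tested genes had in this direction. The mean of the 4 tumors was 111 ± 22 FPKM (SD, n = 4) and that of normal tissue 54.1 ± 13.5 FPKM (SD, n = 4). The difference was 1.03 on the log2(FPKM + 1) scale (SE 0.27, limma adjusted p 0.00694). C1qb rose by 0.95 (adjusted p 0.00482) and C1qc by 0.80 (adjusted p 0.0135) in the same fit. Without the WT-old libraries C1qa and C1qc missed the threshold (0.89, adjusted p 0.0568, and 0.50, adjusted p 0.205), and C1qc also did without WT-old normal 1 (adjusted p 0.0675) or WT-young normal 2 (adjusted p 0.0504). In the heterozygous KO groups C1qa averaged 161 ± 63.0 FPKM (SD, n = 6) in tumors and 87.7 ± 28.6 FPKM (SD, n = 4) in normal tissue. The log2 difference was 0.83 (SE 0.246, limma adjusted p 0.0116), with overlapping ranges, since KO-8-hetero tumor 2 was at 75.1 FPKM and KO-1-hetero normal 1 at 122 FPKM. C1qb and C1qc differed by 0.87 and 0.73 there, with limma adjusted p-values of 0.00373 and 0.0109. Without KO-1-hetero normal 2, the C1qa and C1qc calls in the heterozygous KO groups were lost (0.53, adjusted p 0.1, and 0.42, adjusted p 0.101).

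The chains kept close to the same level. C1qb stood at 0.851 to 1.20 times C1qa over the 24 libraries, and C1qc at 0.827 to 1.27 times, while C1qa itself ranged from 38.7 to 259 FPKM. Pearson's r of log2(FPKM + 1) between C1qa and C1qb was 0.99 over the 14 tumors and 0.98 over the 10 normal libraries. The list of 12 macrophage markers, such as Adgre1, Csf1r and Cd68, moved the same way. Of the 12, 7 rose in WT-young tumors (median log2 difference 0.82) and 10 in heterozygous KO tumors (median 1.02). The mean of the list was at 3.47 to 3.96 in WT-young tumors and 2.84 to 3.38 in WT normal tissue. It was at 3.83 to 4.57 in the heterozygous KO tumors and 2.98 to 3.81 in their normal tissue. No marker of the list was at 0 in any library. Its part in the rise of C1q was not tested. In bulk tissue, fewer cells of a type and less RNA per cell cannot be told apart.

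**Figure D1:**
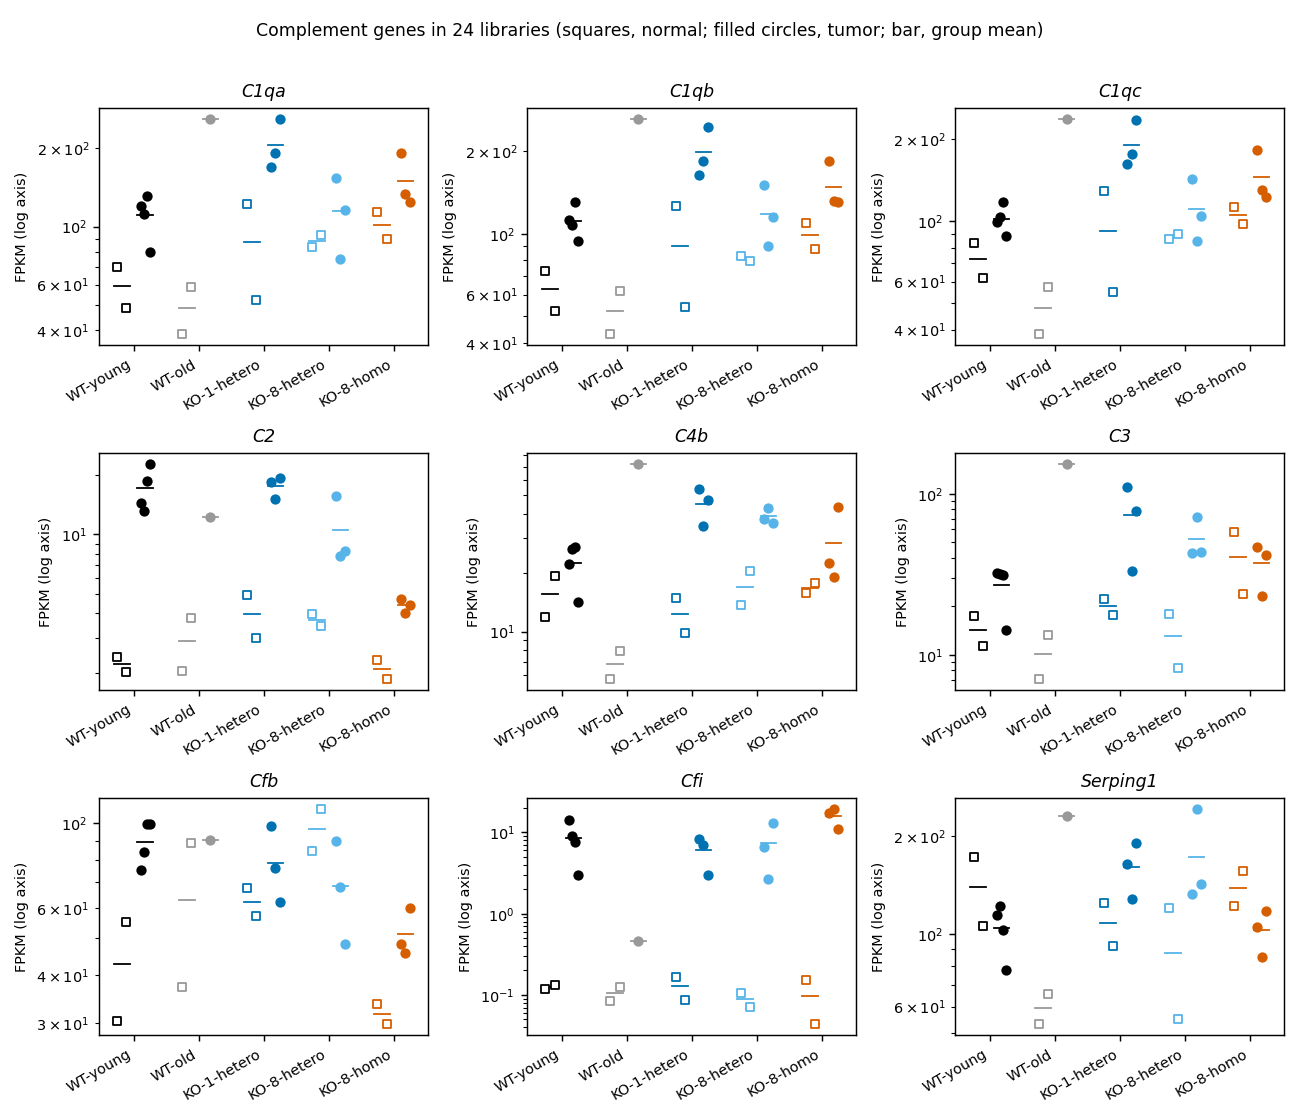
Each of the 9 panels shows 1 member in all 24 libraries, by title group on the x axis and FPKM on a log y axis; open squares are normal tissue, filled circles tumors and short bars group means. C1qa, C1qb and C1qc give nearly the same picture, C2 is low in the 3 KO-8-homo tumors (4.03 to 4.71 FPKM), and Cfi is at 0.167 FPKM or less in all normal libraries.

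C2, the serine protease of the classical pathway convertase, rose in both comparisons. It was at 14.4, 13.1, 18.6 and 22.7 FPKM in the WT-young tumors. Normal tissue had 2.40 and 2.03 FPKM in WT-young and 2.04 and 3.78 FPKM in WT-old. The groups did not overlap, the ratio of means was 6.72, and the log2 difference was 2.35 (SE 0.212, limma adjusted p 1.69e-06). In the heterozygous KO groups C2 was at 18.5, 15.2 and 19.3 FPKM in KO-1-hetero tumors and 15.7, 7.82 and 8.23 FPKM in KO-8-hetero tumors. Their normal tissue had 4.97, 2.99, 3.95 and 3.47 FPKM, below each of these tumors, as 5 members and 12.8% of all tested genes were (log2 difference 1.58, SE 0.193, limma adjusted p 1.68e-05). C2 was chosen for being low in the KO-8-homo tumors beside other tumors. That choice may favour high C2 in the other tumors, and the p-values of C2 carry this limit.

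Cfi, the protease that inactivates C3b and C4b, had the largest log2 difference of the 9 members in both comparisons. It was nearly absent from normal tissue, at 0.0438 to 0.167 FPKM over the 10 libraries. In the WT-young tumors it measured 14.2, 9.15, 7.53 and 3.0 FPKM, a log2 difference of 2.94 (SE 0.391, limma adjusted p 4.66e-05). The ratio of means was 74.1, much above what the log2 difference shows, because the pseudocount of 1 compresses low values. The heterozygous KO tumors ranged from 2.65 to 13.0 FPKM (log2 difference 2.66, SE 0.357, limma adjusted p 3.5e-05). Cfi was the only member with all 14 tumors above all 10 normal libraries, and 3.28% of all tested genes had that pattern. The WT-old tumor, at 0.46 FPKM, was the lowest of the tumors.

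C3, the component that all pathways cleave, and C4b, the partner of C2, rose in both comparisons. C3 was at 32.1, 31.7, 31.2 and 14.3 FPKM in the WT-young tumors and at 7.07 to 17.3 FPKM in WT normal tissue, where only the tumor at 14.3 FPKM fell among the normal values. The log2 difference was 1.09 (SE 0.394, limma adjusted p 0.0381), and this call was lost with no filter on low values (adjusted p 0.0584), without the WT-old libraries (0.85, adjusted p 0.207), without WT-young tumor 1, 2 or 3 (adjusted p 0.09 to 0.0948), and without WT-old normal 1 or WT-young normal 2 (0.142 and 0.11). C4b rose by 1.03 (SE 0.256, limma adjusted p 0.00509), from 11.2 ± 5.98 to 22.5 ± 5.98 FPKM (SD, n = 4 each), and the call was likewise lost without the WT-old libraries (0.50, adjusted p 0.257). In the heterozygous KO groups both stood clear of normal tissue. C3 was at 110, 32.9, 78.5, 42.9, 71.4 and 43.8 FPKM in the 6 tumors and at 8.28 to 22.3 FPKM in the 4 normal libraries (log2 difference 1.83, SE 0.36, limma adjusted p 0.000712). C4b was at 34.7 to 53.8 FPKM in those tumors and at 9.79 to 20.3 FPKM in normal tissue (1.48, SE 0.234, limma adjusted p 0.000134). The fibroblast markers, a list of 10 such as Col1a1 and Col1a2, had 6 members called higher in heterozygous KO tumors, but 1 higher and 2 lower in WT-young tumors. Their part in the C3 and C4b values was not tested.

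Cfb and Serping1 were each called in 1 of these comparisons. Cfb, the protease of the alternative pathway convertase, was at 75.2 to 99.4 FPKM in WT-young tumors and 30.4 to 88.7 FPKM in WT normal tissue, a rise of 0.86 (SE 0.251, limma adjusted p 0.0131) that was lost without WT-old normal 1 (0.55, adjusted p 0.0867) or WT-young normal 1 (0.65, adjusted p 0.0657). In the heterozygous KO groups it was at 73.7 ± 18.2 FPKM (SD, n = 6) in tumors and 79.4 ± 22.6 FPKM (SD, n = 4) in normal tissue. The log2 difference was -0.10 (SE 0.229, limma adjusted p 0.735). Serping1, the inhibitor of C1r and C1s, was at 104 ± 19.4 FPKM (SD, n = 4) in WT-young tumors and 99.2 ± 53.7 FPKM (SD, n = 4) in WT normal tissue (0.20, SE 0.252, limma adjusted p 0.555). That normal mean joins WT-young at 172 and 106 FPKM with WT-old at 53.1 and 65.5 FPKM. Without the WT-old libraries the difference was -0.39 (limma adjusted p 0.376). WT normal includes the WT-old title but the tumors compared do not, so title and tissue are partly confounded. Serping1 rose in the heterozygous KO tumors, from 98.0 ± 32.2 (SD, n = 4) to 167 ± 43.5 FPKM (SD, n = 6), by 0.79 (SE 0.23, limma adjusted p 0.01). That call was lost with a term for Xist (0.81, adjusted p 0.0761) and without KO-1-hetero normal 2 or KO-8-hetero normal 2 (adjusted p 0.0535 and 0.0863). The interaction tested if this difference was unlike between heterozygous KO and WT. No member passed it: Cfb had -0.96 (SE 0.34, limma adjusted p 0.199), C2 -0.77 (SE 0.287, adjusted p 0.213) and Serping1 0.59 (SE 0.341, adjusted p 0.389). Over all genes 0.00725% passed, and 2 of the 9 members had an unadjusted p below 0.05.

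In count, 8 of the 9 members were called higher and none lower in WT-young tumors, where 19.4% of all genes were called higher and 18.5% lower. In heterozygous KO tumors 8 of 9 were called higher and none lower, against 24.4% and 22.8% of all genes. All 4 heterozygous KO normal libraries had high Xist, but of the tumors there only KO-1-hetero tumor 3 and KO-8-hetero tumor 3 did. Sex and tissue were thus partly confounded in this comparison. With a term for Xist, which is estimated from the tumors, only the Serping1 call was lost. The member not called was Serping1 in WT-young and Cfb in the heterozygous KO groups. The median log2 difference of the members was 1.03 and 0.87, and that of all tested genes 0.01 and 0.02. The members were chosen with earlier results of these data known, so nothing is read from their counts and medians against all genes. The C1q chains varied together, so they are not independent in these counts. Without the WT-old libraries 4 members were called in WT-young tumors, namely C1qb, C2, Cfb and Cfi. Leaving out WT-old normal 1 gave 5 members there, and leaving out KO-1-hetero normal 2 gave 5 in the heterozygous KO groups. Markers of other cells moved between the same groups, and their part in these counts was not tested. Smooth muscle markers were lower for 8 of 8 in WT-young and 7 of 8 in heterozygous KO tumors, and neutrophil markers were higher for 7 of 7 in both. Of the NF-kB and acute phase genes 7 and 6 of 10 were higher. T cell markers were higher for none and 3 of 7, epithelial markers had 1 of 8 higher in WT-young and 3 of 8 lower in heterozygous KO tumors, and B and plasma cell markers had 4 of 8 lower and 1 higher in WT-young and 1 lower in heterozygous KO tumors.

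**Figure D2:**
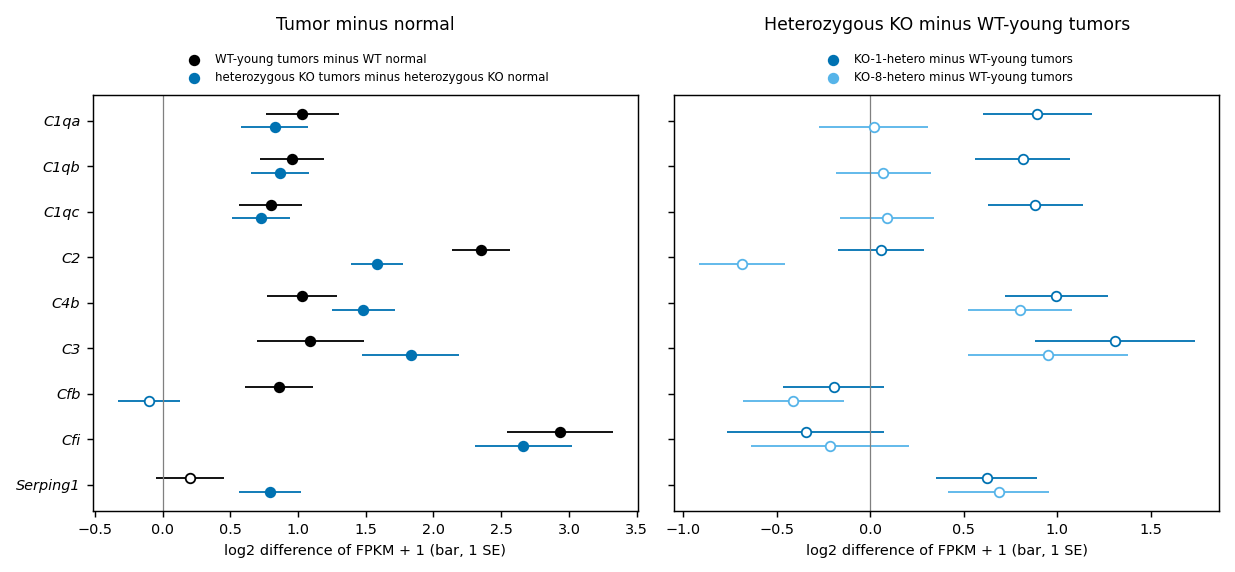
Points are log2 differences of FPKM + 1 for each member with bars of 1 SE, filled where the limma adjusted p was below 0.05; the left panel shows tumor minus normal, the right panel heterozygous KO minus WT-young tumors. On the left Cfi lies farthest from 0 in both comparisons (2.94 and 2.66), and on the right no point is filled.

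The other complement genes came from 5 lists of 51 names, of which 27 were tested. In WT-young tumors 11 of the 27 were called higher and 4 lower, with a median log2 difference of 0.48. In heterozygous KO tumors 16 were called higher and 4 lower, with a median of 0.89. Of the classical and lectin pathway genes, C1ra, the protease that C1q activates, rose by 0.96 (SE 0.194, limma adjusted p 0.0012) and 1.39 (SE 0.177, adjusted p 2.3e-05) in WT-young and heterozygous KO tumors. C1s1, its substrate protease, was at 0.53 (adjusted p 0.135) and rose by 1.34 (adjusted p 0.000464). Fcna, a lectin pathway ficolin, fell in both, by 1.01 and 1.03 (limma adjusted p 0.000229 and 6.7e-05).

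Cfd, factor D, which cleaves factor B and is abundant in fat cells, went the other way. It was at 6.84 to 126 FPKM in the 10 normal libraries and at 0.228 FPKM or less in 10 of the 14 tumors, while the other 4 had 1.29, 8.48, 1.68 and 32.5 FPKM. The fall was 4.08 and 3.84 on the log2 scale (limma adjusted p 0.00107 and 0.000608). Of the terminal pathway, which forms the membrane attack complex, C6 rose by 0.74 and 1.29 (limma adjusted p 0.0136 and 0.000112), whereas Hc, C8a, C8b and C9 stayed below the expression filter. C8g was at 0.01 (adjusted p 0.97) in WT-young tumors and fell by 0.68 in heterozygous KO tumors (limma adjusted p 0.000423). Of the 7 receptor genes tested, 5 were called higher in WT-young and 6 in heterozygous KO tumors, and none lower. The integrin subunits Itgam and Itgb2, which form complement receptor 3, rose by 1.33 and 1.23 (limma adjusted p 0.000192 and 0.00204) in WT-young and by 1.60 and 1.66 (1.5e-05 and 7.1e-05) in heterozygous KO tumors. Itgax, the subunit of complement receptor 4, rose by 1.45 and 1.32 (limma adjusted p 0.000577 and 0.000411). C3ar1, the C3a receptor, rose by 0.74 and 1.05 (limma adjusted p 0.012 and 0.000464). Colec10, a collectin, was the one gene of the 27 called in a comparison within normal tissue, higher in KO-8-homo than in heterozygous KO (1.98, limma adjusted p 0.047). It was at 3.92 and 5.54 FPKM there, but WT-young normal 1 had 6.17 FPKM, and the difference from WT normal was 1.35 (limma adjusted p 0.596). Among membrane and fluid regulators 2 of 7 rose and 2 fell in WT-young tumors, and 3 rose and 1 fell in heterozygous KO tumors.

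Among tumors, the heterozygous KO groups were set against WT-young, which asks whether members differ by the KO label. No member was called in KO-1-hetero against WT-young tumors, where 2.88% of all genes were, and 6 of the 9 had an unadjusted p below 0.05. C4b was at 53.8, 34.7 and 47.2 FPKM in KO-1-hetero and at 22.1, 26.6, 27.1 and 14.2 FPKM in WT-young tumors, without overlap. The log2 difference of 1.00 (SE 0.277) had a limma adjusted p of 0.0599. C1qc was at 162, 176 and 235 FPKM against 88.1 to 118 FPKM (0.88, SE 0.253, adjusted p 0.0667), and C1qa and C1qb had 0.89 and 0.82 (adjusted p 0.103 and 0.0896). C3 had 1.31 (SE 0.426, limma adjusted p 0.102). It passed only when KO-1-hetero tumor 2 was left out (1.80, adjusted p 0.0362). C2, Cfb and Cfi differed by 0.06, -0.19 and -0.35, with limma adjusted p-values of 0.924, 0.753 and 0.711. In all, 6 members had ranges wholly above WT-young (the C1q chains, C4b, C3 and Serping1), as did 12.6% of all tested genes. Macrophage markers had a median of 0.49 in this comparison, T cell markers 1.02, B and plasma cell markers 2.21 and smooth muscle markers 1.88, and their part in it was not tested.

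No member was called in KO-8-hetero against WT-young tumors either, where 0.00725% of all genes were. C4b, C3 and Serping1 had 0.80, 0.95 and 0.69, and C2 had -0.69, each with a limma adjusted p of 0.705, and 4 members had an unadjusted p below 0.05. Their ranges, except that of C2, lay wholly above WT-young, as did 3.04% of all genes. C1qa, C1qb and C1qc differed by 0.02 to 0.09 (SE 0.253 to 0.291). Without KO-8-hetero tumor 1, whose C2 was 15.7 FPKM against 7.82 and 8.23 FPKM in the other two, C2 fell by 0.98 (limma adjusted p 0.0311). The choice of C2 limits this p-value as well. When the heterozygous tumors were set against each other, no member and 0% of all genes were called, while 4 of the members had an unadjusted p below 0.05. Each C1q chain, 3 members in all, was wholly higher in KO-1-hetero there, as were 6.51% of all genes, with log2 differences of 0.75 to 0.87 (limma adjusted p 0.306 to 0.342). The 2 comparisons with WT-young share those 4 tumors.

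C2 in the KO-8-homo tumors is the value for which it was chosen. It measured 4.71, 4.03 and 4.41 FPKM, a mean of 4.38 ± 0.34 FPKM (SD, n = 3). The other 11 tumors ranged from 7.82 to 22.7 FPKM, with a median of 15.2 FPKM, so the groups did not overlap. Of all tested genes 0.913% lay wholly below the other tumors in this way, and nothing is read from that share, since C2 was chosen for it. The mean was 3.93 times lower than in WT-young, 4.03 times lower than in KO-1-hetero and 2.42 times lower than in KO-8-hetero tumors. The log2 difference was -1.73 (SE 0.229) from WT-young and -1.04 (SE 0.245) from KO-8-hetero tumors. Each of these 3 tumors exceeded 9 of the 10 normal libraries, which were at 1.86 to 3.95 FPKM, and lay below KO-1-hetero normal 1 at 4.97 FPKM. Their own normal libraries had 2.32 and 1.86 FPKM. Against their own normal tissue 7 members lay wholly above in these tumors and Serping1 wholly below, where 36% and 32.7% of all genes did, and C3 overlapped.

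No other member lay wholly below the other 11 tumors. Cfb was at 48.4, 45.8 and 59.8 FPKM in KO-8-homo tumors, wholly below WT-young (log2 difference -0.79, SE 0.271) but overlapping KO-8-hetero. Serping1 was at 105, 85.4 and 118 FPKM, wholly below KO-8-hetero (-0.70, SE 0.291) but level with WT-young (-0.01, SE 0.272). C4b was at 22.5, 19 and 43.4 FPKM, and without tumor 3, the highest, its log2 difference from WT-young was -0.07. C3 was at 37.1 ± 12.2 FPKM (SD, n = 3), between the WT-young and KO-8-hetero means. Cfi had its highest group mean here, at 17.3, 19.5 and 11.1 FPKM, with overlap (0.96, SE 0.422, from WT-young), and the C1q chains were 0.41 to 0.49 above WT-young. In this comparison, 2 members (C2 and Cfb) lay wholly below and 2 (C1qb and C1qc) wholly above WT-young, where 11.4% and 9.81% of all genes did. Against KO-8-hetero tumors 2 members (C2 and Serping1) lay wholly below and none above, where 4.76% and 4.46% of all genes did. C2 is among both counts by choice, so nothing is read from these shares. The 10 neighbours of C2 and Cfb in the complex, such as Slc44a4, Ehmt2 and Zbtb12, had a median log2 difference of -0.04 from WT-young and -0.03 from KO-8-hetero tumors.

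**Figure D3:**
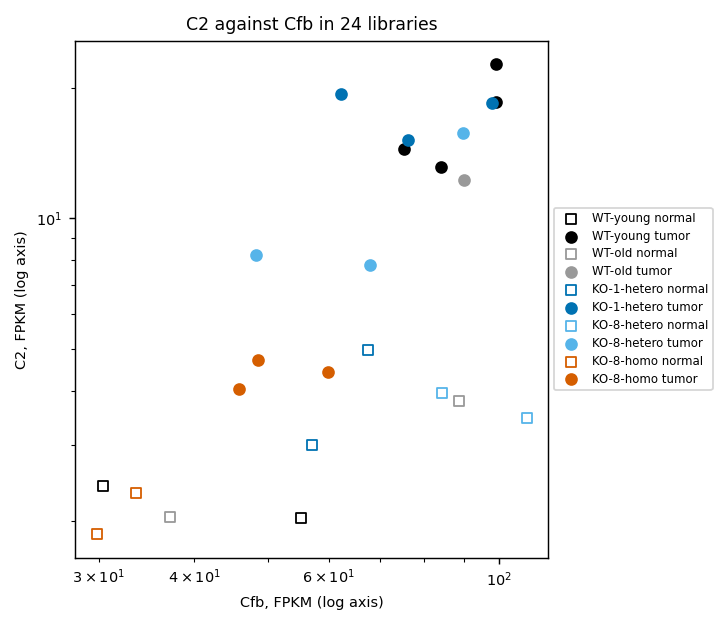
Each symbol is 1 of 24 libraries, with Cfb FPKM on the x axis and C2 FPKM on the y axis, both log scales; squares are normal tissue and filled circles tumors. At the same Cfb level the other tumors lie above normal tissue, and the 3 KO-8-homo tumors, with C2 at 0.0737 to 0.0972 times Cfb, lie below the other 11 tumors (0.115 to 0.31) and overlap normal tissue (up to 0.0791).

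C2 and Cfb, the neighbouring homologous convertase genes, kept an order but not a fixed ratio. C2 was at 0.0318 to 0.0791 times Cfb in the 10 normal libraries. The ratio was 0.0737 to 0.0972 in KO-8-homo tumors and 0.115 to 0.31 in the other 11 tumors. Within tumors the pair still varied together, with Pearson's r of 0.81 and Spearman's rho of 0.75 over 14 libraries, which include the 3 KO-8-homo tumors that chose C2. Over the other 11 tumors r was 0.64 and rho 0.54. In normal tissue, which the choice did not use, r was 0.77 and rho 0.76 over 10 libraries.

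The KO-8-homo group could be examined in its normal tissue, which was not used to choose C2. There C2 was at 2.32 and 1.86 FPKM, below the 4 heterozygous KO normal libraries (2.99 to 4.97 FPKM). The log2 difference was -0.64 (SE 0.259, limma adjusted p 0.181). Against WT normal tissue, at 2.03 to 3.78 FPKM, it was -0.18 (SE 0.259, limma adjusted p 0.953), with overlap. Cfb was at 33.6 and 29.8 FPKM, below heterozygous KO normal tissue at 57.1 to 109 FPKM, and this was the only member called (-1.26, SE 0.307, limma adjusted p 0.0468). Of all genes 1.10% were called lower. The call was lost with no filter on low values (adjusted p 0.0602). It held only without KO-8-hetero normal 1 when these 6 libraries were left out in turn, and was lost without any of the other 5 (adjusted p 0.0977 to 0.63), and against WT normal tissue the difference was -0.60 (adjusted p 0.759). All 4 heterozygous KO normal libraries, and neither KO-8-homo one, had high Xist. With a term for it, which is estimated from the tumors, the difference was -1.83 (adjusted p 0.0411). In all, 2 members (C2 and Cfb) lay wholly below heterozygous KO normal tissue and 1 (C3) wholly above, where 15% and 14.3% of all genes did. C3 was at 57.5 and 23.9 FPKM, above the 4 heterozygous KO libraries (1.20, SE 0.483, limma adjusted p 0.178). No member was called between all KO and WT normal libraries (0.0507% of all genes were) or between KO-8-homo and WT normal (0.0362%), with 5 and 4 of the members at an unadjusted p below 0.05. The C1q chains and C3, 4 members, lay wholly above WT normal in KO-8-homo normal tissue, as did 6.75% of all genes. The C1q chains differed by 0.61 to 0.75 between all KO and all WT normal libraries, with limma adjusted p-values of 0.353 to 0.417. High Xist occurred in KO but in no WT normal library, and WT normal includes WT-old, so label, sex and age title are partly confounded there. Without the WT-old libraries C4b and Serping1 had -0.015 and -0.34 in this comparison, in place of 0.52 and 0.25.

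Across tumors the members fell into sets that varied together. C4b, C3 and Serping1 had r of 0.87 to 0.91 with each other over the 14 tumors, with rho of 0.85 for C4b and C3. C2 had r of 0.03 to 0.11 with these 3, which turned to -0.29 to -0.55 over the 11 tumors other than KO-8-homo. Cfi had r of -0.47 to -0.62 with C2, C4b, C3, Cfb and Serping1. Over the 11 tumors other than KO-8-homo it was -0.02 with C2, -0.22 with Cfb and -0.42 to -0.50 with C4b, C3 and Serping1. Over the 13 tumors other than WT-old, Cfi had -0.17 with C3, -0.25 with C4b and -0.47 to -0.59 with C2, Cfb and Serping1. With the C1q chains its r of -0.19 to -0.32 rested on the WT-old tumor, where Cfi was lowest, and was 0.06 to 0.19 over the other 13 tumors. Leaving out these tumors was chosen after seeing the data. In the 10 normal libraries r was 0.97 to 0.98 among the C1q chains and 0.68 for C3 with Serping1, but C4b with C3 had 0.32 and C4b with Serping1 0.43. These are descriptions over libraries that share groups and differ in depth and cell content.

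**Figure D4:**
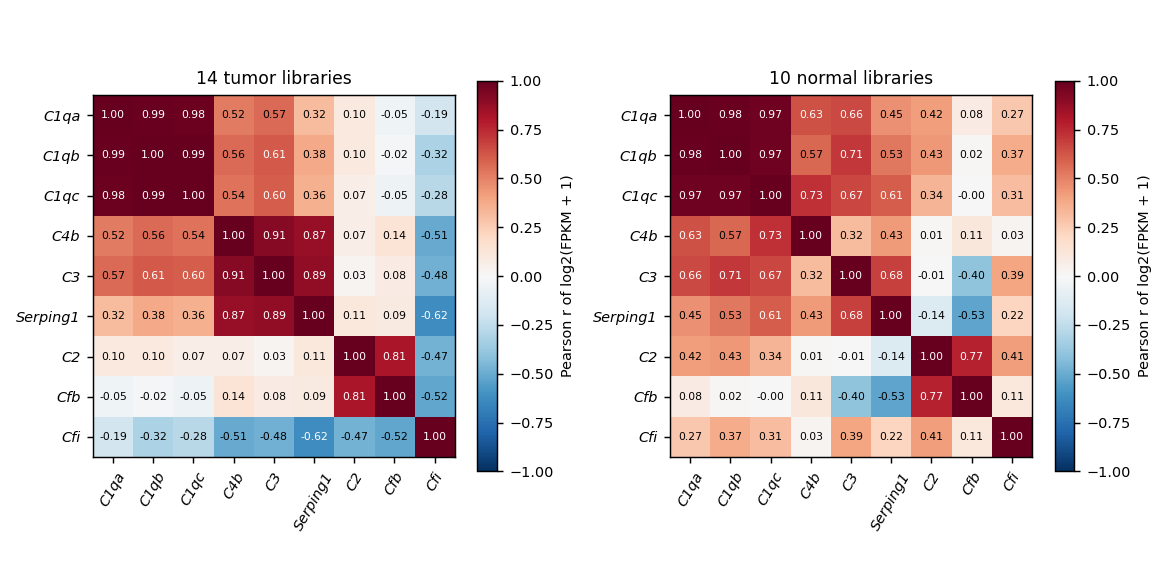
Each cell gives Pearson's r of log2(FPKM + 1) between 2 members, over 14 tumor libraries on the left and 10 normal libraries on the right, on a colour scale from -1 to 1. The C1q chains form a block in both, C4b, C3 and Serping1 form one in tumors, and Cfi is negative with all others in tumors, with the C1q chains only while the WT-old tumor is included. Without the WT-old tumor r of Cfi with C3 is -0.17, and without the KO-8-homo tumors r of Cfi with C2 is -0.02.

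The genes most like a member over the 14 tumors, out of 13790 others, were listed by Pearson's r. For C2 they were Ubd (0.94), a ubiquitin-like modifier, B2m (0.91), the light chain of MHC class I, H2-D1 (0.90), Ube2l6 (0.89) and H2-T22 (0.89). The 14 tumors include the 3 KO-8-homo tumors for which C2 was chosen, so genes low there rank high. Over the other 11 tumors r was 0.79 for Ubd, 0.71 for B2m, 0.68 for H2-D1, 0.58 for Ube2l6 and 0.59 for H2-T22. H2-D1 and H2-T22 belong to a family of similar sequence, so their values are uncertain. For C1qa they were Gpr65 (0.95), Slc25a45 (0.94), Pla2g15 (0.92), Tifab (0.92) and Arrb2 (0.92). For C3 they were Dclk1 (0.96), Dzip1 (0.93), Csf2rb2 (0.92), Dhdh (0.91) and Dexi (0.91), of which Dzip1 stayed at 1.82 FPKM or less.

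A list of 18 interferon response genes, such as Stat2 and Irf1, was read beside C2. Its mean was at 3.67 to 4.0 in the KO-8-homo tumors and at 4.54 to 5.63 in the other 11 tumors on the log2(FPKM + 1) scale, without overlap. In normal tissue it was at 3.22 to 3.98. Of the 18 genes, 15 rose in WT-young tumors and 15 in heterozygous KO tumors, with medians of 1.75 and 1.59. The part of this list in the C2 values was not tested. Among the other 11 tumors, KO-8-hetero tumor 3 had a list mean of 5.33 with C2 at 8.23 FPKM. KO-1-hetero tumor 2 had a list mean of 4.54 with C2 at 15.2 FPKM. These tumors were picked as examples of an unlike order. No correlation of the list mean with C2 over the 11 tumors was computed, so nothing is read from the examples.

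**Figure D5:**
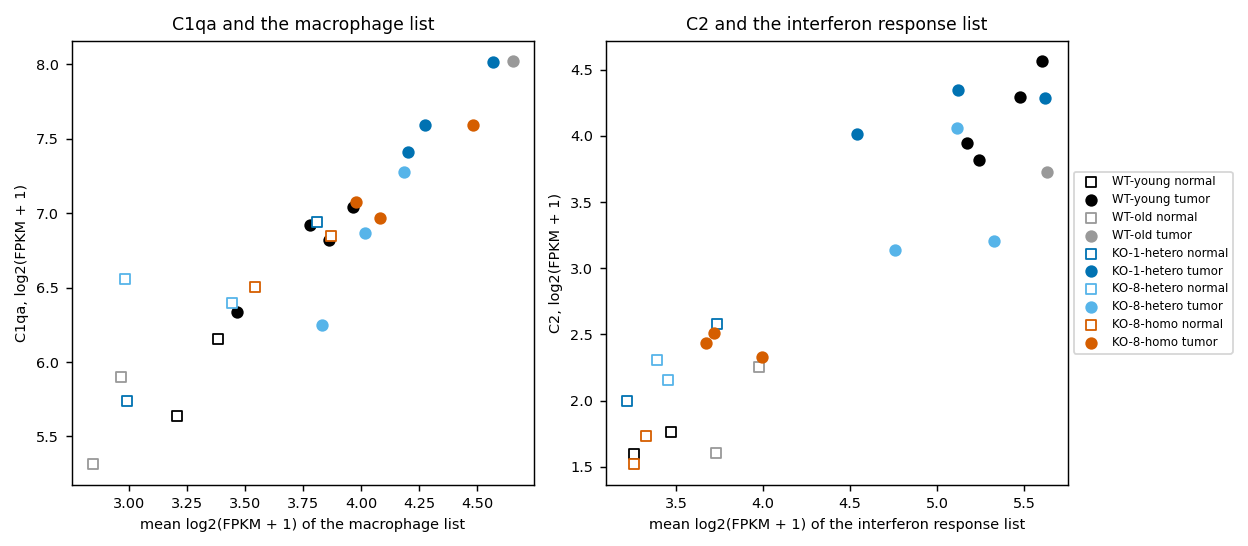
The left panel plots C1qa against the mean of the macrophage list and the right panel C2 against the mean of the interferon response list, all as log2(FPKM + 1), with 1 symbol per library, squares for normal tissue and filled circles for tumors. C1qa rises with the macrophage list through both tissues; on the right the 3 KO-8-homo tumors lie beside normal tissue on both axes.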

How the data were processed

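Libraries were made with a stranded TruSeq mRNA kit from total RNA, per the labels' protocols. TopHat2 2.1.1, Bowtie2 2.2.8, SAMtools 0.1.18, Cuffdiff 2.2.1 and the build mm10 are named, without roles, per the submitters' processing notes; the annotation is not given in the sources used here. The authors deposited 1 table of FPKM values per library, per the file headers. Such values do not suit a count model, and fragment totals are unknown. Relative depth came from the most frequent ratio of values among 9243 genes below 1 FPKM in all libraries. Promoter sequences and positions came from RefSeq (GRCm38.p6). Genes with at least 1 FPKM in at least 4 libraries were kept. Values were transformed as log2(FPKM + 1), so differences of low genes are understated, and no scaling between libraries was applied. One limma model (limma 3.58.1, R 4.3.3; lmFit, contrasts.fit, eBayes with an intensity trend) of the 10 title groups held all 24 libraries. Tests were two-sided with Benjamini-Hochberg adjustment over all 13799 genes at 0.05. WT normal is the mean of the WT-young and WT-old normal groups, and the WT-old tumor entered no comparison. The fit was tested on simulated data. Python 3.11.15 with numpy 2.4.6, pandas 2.3.3 and matplotlib 3.10.9 was used for the rest. The members and lists were chosen with earlier results of these data known. The text names all members, other complement genes with the smallest p in the tumor-normal comparisons, up to 3 leading names of each marker list, and the 5 genes most like C2, C1qa and C3; Cfd, C1s1, C3ar1 and Cr2 were described after their values were seen. Some genes that this rule names are not reported here. Alternatives were a pseudocount of 0.1, no filter, median scaling, no trend, a replicate block, a term for Xist of at least 1 FPKM, no WT-old libraries, and leaving out each library. Correlations without the WT-old or KO-8-homo tumors were added after seeing the data.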

Additional observations from a re-analysis of the deposited data

Results flagged for a closer look

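C3 in WT-young tumor 4 was at 14.3 FPKM, far below the other 3 libraries of its group, by Dixon's test at the 95% level; that test flags about 1 in 20 groups by chance, and it was run for 9 members in this 1 group of 4 libraries.

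The WT-old tumor is a single library that entered no comparison. All 9 members were above the highest WT normal library there, Cfb by little, since that library had 88.7 FPKM. The share of all tested genes with this pattern was not computed, so nothing is read from the count. C1qa, C1qb and C1qc were at 259, 263 and 238 FPKM, C4b at 72.4 FPKM and C3 at 153 FPKM, each the highest value of the 24 libraries. C2 was at 12.3, Cfb at 90.1, Serping1 at 231 and Cfi at 0.46 FPKM. Its macrophage list mean of 4.65 was also the highest, though KO-1-hetero tumor 3 had 4.57. The B and plasma cell mean of 7.18 (next 5.58) and the T cell mean of 4.05 (next 3.45) were the highest too. Cr2, the complement receptor of B cells and follicular dendritic cells, was at 35.6 FPKM against 6.02 FPKM or less elsewhere. The part of these cells in the members' values was not tested.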

How the results depend on the processing

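Over the alternatives other than leaving out a library, 672 of the members' log2 differences counted as unchanged, 7 lost the call and 14 changed sign. All of the 14 were uncalled, and the cause was not tested. Unchanged meant the same direction and call. In KO-8-homo against WT-young and KO-8-hetero tumors, which have no test here, it meant the same direction and a value within 1 SE. Without the WT-old libraries 4 members were called higher in WT-young tumors against WT normal tissue, Serping1 had -0.39 there, C4b and Serping1 had -0.015 and -0.34 between KO and WT normal tissue, and C1qb and C1qc had 0.045 and 0.23 in the interaction. With the Xist term C1qa and C1qb had -0.085 and -0.0094 in KO-8-hetero against WT-young tumors, Cfi 0.14 in KO-8-homo against heterozygous KO normal tissue, and C1qa, C1qb and C1qc 0.0024, 0.075 and 0.063 in the interaction. With median scaling Cfi had 0.019 between KO and WT normal tissue, and with no filter 0 members were lower in KO-8-homo normal tissue, where 1 was.

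Correlations of the deviations of same-numbered tumor and normal libraries from their group means ranged from -0.159 to 0.355 over 8 pairs. The 8 values are not independent, since the 2 normal libraries of a group deviate in mirror image. They cannot show whether a replicate number marks a shared animal. In both heterozygous KO titles Xist was 0.0621 FPKM or less in tumors 1 and 2. Normal libraries 1 and 2 had 7.38 FPKM or more. Same-numbered libraries there thus came from different animals, and for the other groups this is unknown. With the replicate block C1qa and C1qb had -0.13 and -0.0063 in KO-8-hetero against WT-young tumors, no count of members called moved, and over all genes 230 in place of 397 were called in KO-1-hetero against WT-young tumors, 42 in place of 63 in KO-8-homo against WT-young tumors and 441 in place of 272 between KO-8-homo and heterozygous KO normal tissue.

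When each library was left out in turn, the members called higher ranged from 5 to 8 in WT-young and from 5 to 8 in heterozygous KO tumors against normal tissue, from 0 to 1 higher in KO-1-hetero and from 0 to 1 lower in KO-8-hetero against WT-young tumors, and from 0 to 1 lower in KO-8-homo against heterozygous KO normal tissue. The sign of these small differences changed with the library left out. For heterozygous KO tumors against normal tissue Cfb ranged from -0.21 to 0.012. For KO-1-hetero against WT-young tumors C2 ranged from -0.054 to 0.19 and Cfi from -0.71 to 0.020. For KO-8-hetero against WT-young tumors C1qa ranged from -0.22 to 0.29, C1qb from -0.12 to 0.25, C1qc from -0.11 to 0.27 and Cfi from -0.68 to 0.29. For KO-1-hetero against KO-8-hetero C3 ranged from -0.0080 to 0.85, Cfb from -0.010 to 0.43, Cfi from -0.63 to 0.34 and Serping1 from -0.22 to 0.21. Between KO and WT normal tissue Cfb ranged from -0.071 to 0.54 and Cfi from -0.037 to 0.0099. For KO-8-homo normal tissue against heterozygous KO, C1qa ranged from -0.034 to 0.57, C1qb from -0.045 to 0.56, C1qc from -0.020 to 0.59 and Cfi from -0.086 to 0.055, and against WT normal tissue Cfi ranged from -0.094 to 0.047. In the interaction C1qa ranged from -0.50 to 0.10, C1qb from -0.39 to 0.22, C1qc from -0.38 to 0.23 and Cfi from -0.64 to 0.0062.

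In KO-8-homo against WT-young tumors, which has no test here, C4b ranged from -0.073 to 0.50 and Serping1 from -0.15 to 0.11.

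Correlations over the tumors were recomputed without some libraries, a choice made after seeing the data. Without the WT-old tumor Pearson's r of Cfi with C1qa, C1qb and C1qc turned to 0.19, 0.063 and 0.071, C3 with Cfb to -0.068 and Cfb with Serping1 to -0.020. Without the KO-8-homo tumors C2 with C4b, C3 and Serping1 turned to -0.33, -0.29 and -0.55, Cfb with C4b, C3 and Serping1 to -0.17, -0.11 and -0.35, and Cfb with C1qa, C1qb and C1qc to 0.018, 0.041 and 0.054.

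Where a group is left with 1 library, that library is assumed to vary like the other groups. Fragment totals are unknown, so no counting interval can be given, and Cfi in normal tissue lies where a pseudocount of 1 dominates the log2 value. The labels do not tie libraries to animals.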
